A study of Homo sapiens with 36 samples.

Results

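CXCR4, CXCR3, CXCR5, CCR7 and CD44 are 5 genes whose products steer lymphocytes to and within tissues, and they were taken by symbol from the 2549 genes of a targeted RNA-Seq panel counted in 36 human lymphoma cell lines. All 5 were in the panel and all 5 passed the filter on low values, which kept 2406 genes that reached 10 CPM in 4 lines or more, CPM being the count scaled to a fixed library total. Each line gave 1 library, run once and with no treatment, so the lines of a lymphoma type stand as its replicates. The labels name the lines and give no lymphoma type. Types were therefore assigned from the published diagnosis of each line as generally known, which left 5 marginal zone lymphoma or hairy cell leukaemia lines (KARPAS1718, SSK41, VL51, HC_1 and HAIR_M) and 9 mantle cell lymphoma lines (GRANTA519, JEKO1, JVM2, MAVER1, MINO, REC1, SP49, SP53 and UPN1). A further 5 lines were diffuse large B-cell lymphoma of the activated B-cell kind (ABC: HBL1, TMD8, U2932, RIVA and SUDHL2) and 14 were of the germinal centre B-cell kind (GCB: DB, DOHH2, KARPAS422, OCILY1, OCILY7, OCILY8, OCILY18, OCILY19, SUDHL4, SUDHL6, SUDHL10, SUDHL16, TOLEDO and WSU_DLCL2). The chronic lymphocytic leukaemia line MEC1 and the diffuse large B-cell lines FARAGE and RCK8, which were given no subtype, entered no test between types. Every line is a culture grown from 1 patient and adapted to life outside a tissue, so it carries no stroma and no lymph node around it. GRANTA519, JVM2 and FARAGE are among the lines known to carry Epstein-Barr virus.

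Chemokine receptors are 7-pass membrane proteins that bind small secreted chemokines and, through Gi proteins, turn a chemokine gradient into directed movement. CXCR4 answers CXCL12 and holds cells in bone marrow and in the dark zone of the germinal centre, CXCR5 answers CXCL13 and draws B cells into follicles, CCR7 answers CCL19 and CCL21 and brings cells to the lymph node T zone, and CXCR3 answers the interferon-induced CXCL9, CXCL10 and CXCL11. CD44 is an adhesion molecule that binds hyaluronan in the matrix, and in normal lymphoid tissue germinal centre B cells carry little CD44 and little CCR7.

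Library totals ran from 6422917 to 13451527 counts, with a median of 10476681. Levels are CPM scaled by the TMM factor of each library, which ran from 0.602 to 1.87, and a panel probe's CPM sets lines apart for 1 gene but does not set genes against each other. MEC1 stood apart in background, since its highest control target reached 19.3 CPM. The 10 targets named ER and a number were taken as controls, an assumption, since the labels do not say what they are. The libraries most like each other were SP49 and SP53, with a Spearman rho of 0.952 over the 2406 genes, and SUDHL2 and TMD8, with 0.939, where the median pair of lines had 0.804. Summed over the 5 measured B-cell markers, levels ran from 718 to 15800 CPM. The sums of the 6 T and NK cell markers ran from 21.3 to 729 CPM, those of the 7 myeloid markers from 121 to 971 CPM, and those of the 6 stromal and endothelial markers from 32.7 to 1180 CPM. The B-cell genes MS4A1 (CD20), CD79A, PAX5 and CD22 reached 10 CPM in all 36 lines. The part of signal from the other marker lists in the results was not tested.

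All 5 genes were among the most variable of the panel. The SD of log2 CPM across the 36 lines was 3.21 for CXCR3 (place 7 of 2406), 2.79 for CXCR5 (place 30), 2.59 for CD44 (place 49), 2.46 for CCR7 (place 73) and 2.41 for CXCR4 (place 88), against a median of 1.2 over all genes. Counting error would account for 2.63% of the variance of CXCR3 and for at most 0.0688% of that of the other genes. Lymphoma type took 42.1% of the variance of CCR7 over the 33 typed lines, 38.7% of that of CXCR3, 34% of that of CD44, 18.5% of that of CXCR5 and 15.8% of that of CXCR4, where the median gene had 10.9%. In a lysate of a whole culture, fewer cells that express a gene and less RNA per cell cannot be told apart.

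**Figure D1:**
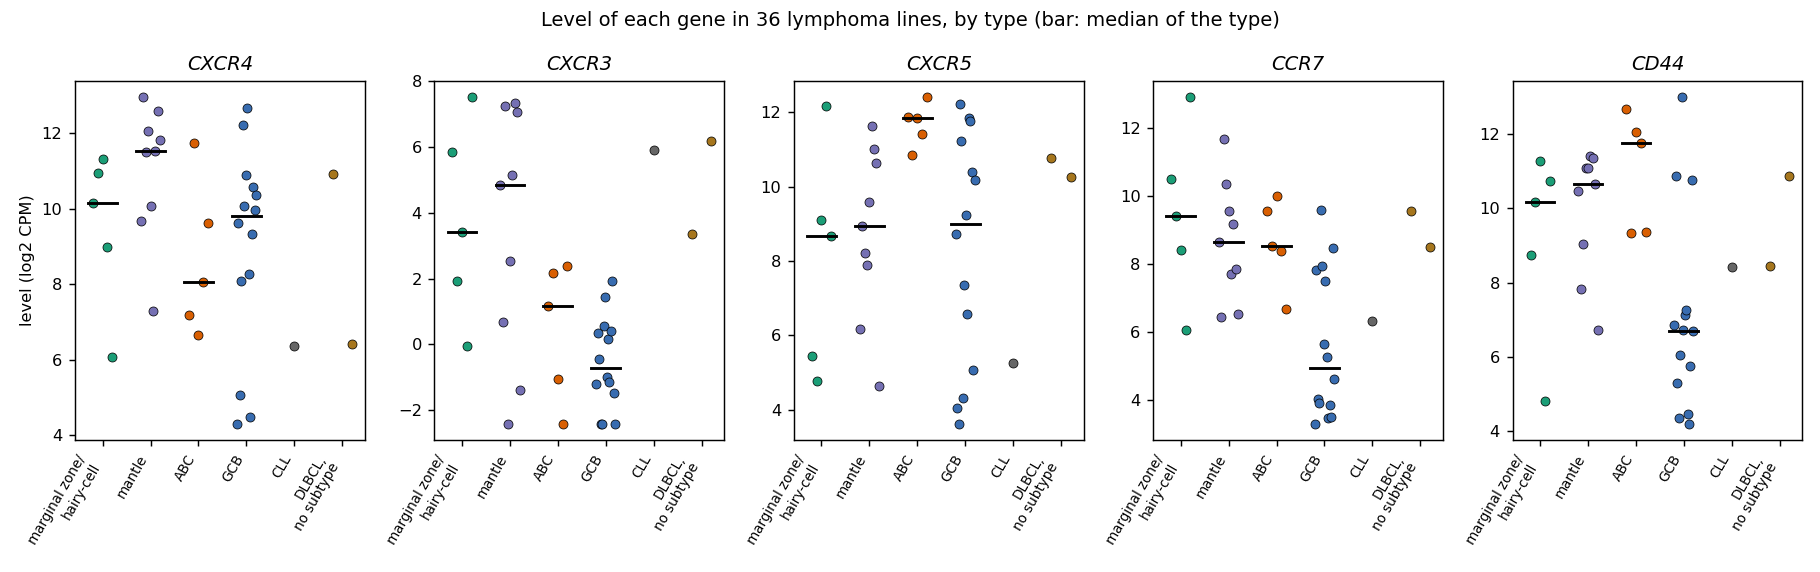
Level of each gene (log2 CPM, y axis) in each of the 36 lines (points) by lymphoma type (x axis), with bars at the type median for the 4 types with several lines. The 5 ABC lines sit together at 1840 CPM or more of CXCR5, and all 14 GCB lines sit under 10 CPM of CXCR3. In every gene, CXCR5 and CXCR3 included, the points of each pair of the 4 types overlap.

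CXCR4 was highest in the mantle cell lines by median and was detected in every line. The marginal zone and hairy cell lines had 2530 (KARPAS1718), 1980 (HC_1), 1130 (HAIR_M), 501 (SSK41) and 67.2 CPM (VL51). The mantle cell lines ran from 156 CPM in REC1 through a median of 2990 to 7930 CPM in JEKO1, the highest of all 36. The ABC lines had 3440 (RIVA), 780 (U2932), 265 (TMD8), 145 (HBL1) and 100 CPM (SUDHL2). Mantle cell lines were thus mostly high, with 7 of 9 over 1000 CPM, and RIVA alone was over that level among the 5 ABC lines. The 14 GCB lines ran from 19.5 CPM in DB through a median of 894 to 6560 CPM in OCILY8, and 3 of them, DB, SUDHL16 and KARPAS422, held under 100 CPM. By median the order was mantle cell, marginal zone and hairy cell, GCB, then ABC, and all neighbours in that order overlapped.

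CXCR4 (chr2:136114349-136118165, minus strand, GENCODE release 29 on GRCh38) did not differ between any of the 6 pairs of types by edgeR's quasi-likelihood test with Benjamini-Hochberg adjustment over 2406 genes. In mantle cell lines against GCB lines the log2 fold change was 1.21 ± 0.76 (SE, n = 9 and 14, 95% interval -0.33 to 2.75, edgeR adjusted p = 0.379). Against ABC lines it was 1.82 ± 1.09 in mantle cell lines (n = 9 and 5, edgeR adjusted p = 0.401), or 3.37 without RIVA, and -1.42 ± 1.07 in marginal zone and hairy cell lines against mantle cell lines (n = 5 and 9, edgeR adjusted p = 0.924). In marginal zone and hairy cell lines against GCB lines, the value of -0.21 (edgeR adjusted p = 0.988) took the other sign, 0.51, in limma-voom, and without VL51, OCILY8 or OCILY18 as well. The SD of log2 CPM within a type was 2.11 in marginal zone and hairy cell, 1.77 in mantle cell, 2.06 in ABC and 2.69 in GCB lines.

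The RefSeq promoter of CXCR4 (250 bases before to 50 after the first of its 3 annotated starts) is printed because it holds a pair of named motifs that few promoters hold. In capitals are GCGCATGCGC, the NRF1 motif and an inverted repeat of TGCGC, which began 59 bases before the start and was found in 1.24% of the 35116 RefSeq promoters of the same length on either strand, and TATAAA with the TTTATA that overlaps it on the other strand, which lay around base -30 and was found in 11.5%. The stretch is chr2:136118100-136118399 on the minus strand of GRCh38.p14, written 5′ to 3′.
CXCR4 promoter: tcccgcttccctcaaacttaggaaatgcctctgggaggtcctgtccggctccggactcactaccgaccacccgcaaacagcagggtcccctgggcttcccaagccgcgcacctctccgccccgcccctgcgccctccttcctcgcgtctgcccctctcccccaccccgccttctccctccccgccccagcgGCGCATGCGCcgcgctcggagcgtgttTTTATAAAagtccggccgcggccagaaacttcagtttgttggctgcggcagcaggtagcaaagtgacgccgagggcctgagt
The 10-base NF-kB consensus, found in 5.91% of promoters, did not occur in this window. These letters are a description and no measure of binding.

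CXCR5 was uniformly high in ABC lines and scattered in every other type. The marginal zone and hairy cell lines had 4630 (SSK41), 548 (KARPAS1718), 409 (VL51), 43 (HAIR_M) and 26.9 CPM (HC_1). The mantle cell lines ran from 24.7 CPM in UPN1 through a median of 487 to 3180 CPM in REC1, with a mean of 8.75 ± 2.3 log2 CPM (SD, n = 9). The ABC lines had 5400 (U2932), 3710 (HBL1), 3670 (SUDHL2), 2720 (TMD8) and 1840 CPM (RIVA), a mean of 11.67 ± 0.58 log2 CPM (SD, n = 5). SSK41 alone of the marginal zone and hairy cell lines went past the ABC median, and the hairy cell leukaemia lines HC_1 and HAIR_M were the lowest of those 5. The GCB lines ran from 12.1 CPM in KARPAS422 through a median of 515 to 4780 CPM in OCILY1, with a mean of 8.32 ± 3.14 log2 CPM (SD, n = 14). Within the GCB type, 6 lines held over 1000 CPM and 5 under 100 CPM. By median the order was ABC, GCB, mantle cell, then marginal zone and hairy cell, each overlapping the next.

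None of the 6 comparisons of CXCR5 (chr11:118883766-118897799, plus strand) passed the test. The log2 fold change in ABC over GCB lines was 1.42 ± 1.02 (n = 5 and 14, 95% interval -0.66 to 3.49, edgeR adjusted p = 0.541). Mantle cell lines were at -1.84 ± 1.13 against ABC lines (n = 9 and 5, edgeR adjusted p = 0.407), and marginal zone and hairy cell lines at -1.62 ± 1.35 against ABC lines (n = 5 each, edgeR adjusted p = 0.906), or -3.76 without SSK41. A fitted fold change follows the arithmetic mean of a type, so the 6 GCB lines over 1000 CPM weigh more in it than the 5 under 100 CPM. The remaining comparisons gave -0.42 in mantle cell against GCB lines, -0.2 in marginal zone and hairy cell against GCB lines and 0.23 in marginal zone and hairy cell against mantle cell lines, with the sign of each changed by other scalings or tests. In the annotation, BCL9L and the antisense AP004609.1 overlap CXCR5 on the opposite strand. Whether counting used strand is not given in the sources used here. It therefore could not be told whether reads of these genes entered the CXCR5 count where they overlap.

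CCR7 was higher in most lines of the other types than in most GCB lines. The marginal zone and hairy cell lines had 7670 (VL51), 1440 (HAIR_M), 682 (HC_1), 340 (KARPAS1718) and 65.4 CPM (SSK41). The mantle cell lines ran from 86.6 CPM in JEKO1 through a median of 403 to 3290 CPM in JVM2. ABC lines had 1030 (SUDHL2), 754 (HBL1), 366 (RIVA), 331 (TMD8) and 102 CPM (U2932). These 3 types overlapped almost fully, and VL51 and JVM2 were the highest lines of the series. The GCB lines ran from 9.62 CPM in DB through a median of 31.1 to 778 CPM in OCILY18. There, 9 of 14 lines lay under 100 CPM, and the 5 above were OCILY8, DOHH2, OCILY19, TOLEDO and OCILY18 with 180, 225, 246, 357 and 778 CPM. FARAGE and RCK8 had 754 and 362 CPM, and MEC1 80.1 CPM. By median the order was marginal zone and hairy cell, mantle cell, ABC, then GCB, and every pair of types overlapped.

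For CCR7 (chr17:40553769-40565472, minus strand) the difference between marginal zone and hairy cell lines and GCB lines passed the test, with a log2 fold change of 3.85 ± 0.89 (SE, n = 5 and 14, 95% interval 2.04 to 5.67, edgeR adjusted p = 0.00959), a 14.5-fold higher fitted level. That call rested on VL51: without it the log2 fold change was 2.16 (edgeR adjusted p = 0.339), and without OCILY18 it was 4.47. It was also lost in limma-voom, at 3.73 (adjusted p = 0.0582), and in limma on the authors' log2 values, at 3.82 (adjusted p = 0.056). In mantle cell lines against GCB lines the log2 fold change was 2.45 ± 0.79 (n = 9 and 14, 95% interval 0.85 to 4.06) and missed the threshold in edgeR (adjusted p = 0.0642). The same difference passed without OCILY18, at 3.07 (edgeR adjusted p = 0.0201), and passed in DESeq2 (2.5, adjusted p = 0.011), limma-voom (2.95, adjusted p = 0.0453) and limma on the authors' log2 values (3.1, adjusted p = 0.0222), while without JVM2 it was 1.7. ABC lines against GCB lines gave 1.87 ± 0.9 (n = 5 and 14, 95% interval 0.05 to 3.69, edgeR adjusted p = 0.318). Among the 3 types other than GCB, no difference passed, with intervals of -1.56 to 2.73 for mantle cell against ABC lines, -0.49 to 4.45 for marginal zone and hairy cell against ABC lines and -0.64 to 3.44 for marginal zone and hairy cell against mantle cell lines.

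CXCR3 was present at 10 CPM or more in 11 of 36 lines, none of them GCB or ABC. The marginal zone and hairy cell lines had 182 (VL51), 57 (HAIR_M), 10.4 (KARPAS1718), 3.6 (HC_1) and 0.782 CPM (SSK41). The mantle cell lines ran from 0 in MAVER1 through a median of 28.3 to 162 CPM in SP49, with JVM2 at 153, SP53 at 133, REC1 at 35.6 and GRANTA519 at 28.3 CPM. ABC lines had 5.07 (U2932), 4.3 (RIVA), 2.05 (HBL1), 0.291 (SUDHL2) and 0 CPM (TMD8). The signal thus came from some lines of the marginal zone, hairy cell and mantle cell types, while UPN1, JEKO1 and MINO, like MAVER1, stayed under 10 CPM. In the GCB lines the lowest was 0, the median 0.432 and the highest 3.64 CPM, in SUDHL6. The untyped RCK8 and FARAGE had 71.9 and 10.1 CPM, and MEC1 had 59.7 CPM beside its highest control target of 19.3 CPM. A count of 0 was found in 5 lines and allows up to 0.439 CPM in MAVER1, 0.368 in WSU_DLCL2, 0.333 in OCILY1, 0.272 in OCILY18 and 0.218 in TMD8, for counting error alone. In 16 lines, 10 of them GCB, CXCR3 was at or under the highest control target of its own library. By median the order was mantle cell, marginal zone and hairy cell, ABC, then GCB, each overlapping the next.

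For CXCR3 (chrX:71615916-71618517, minus strand), mantle cell lines were higher than GCB lines by 6.02 ± 1.09 log2 units (SE, n = 9 and 14, 95% interval 3.8 to 8.25, edgeR adjusted p = 0.000844). Marginal zone and hairy cell lines were higher than GCB lines by 5.84 ± 1.14 (n = 5 and 14, 95% interval 3.51 to 8.17, edgeR adjusted p = 0.00311). CXCR3 passed the filter on low values only through lines that are not GCB, so a gene kept in this way had to be higher outside the GCB type. Leaving out VL51 lowered the marginal zone and hairy cell value to 4.34 (edgeR adjusted p = 0.0323). Leaving out any line in turn kept both calls, which is no support for their direction, since the filter had set it. The mantle cell value was then between 5.65 (without SP49) and 6.41 (without SUDHL6). Leaving out SP53 with TMD8, as the near likes of SP49 and SUDHL2, gave 5.76 in mantle cell lines (edgeR adjusted p = 0.00149). limma-voom gave 4.38 for mantle cell lines (adjusted p = 0.0748) and 4.74 for marginal zone and hairy cell lines (adjusted p = 0.156), neither past the threshold, and limma on the authors' log2 values lost the second of these (4.58, adjusted p = 0.139). Against ABC lines the log2 fold change was 4.62 ± 1.6 in mantle cell lines (n = 9 and 5, edgeR adjusted p = 0.24), which passed in DESeq2 (4.74, adjusted p = 0.00733), and 4.43 ± 1.65 in marginal zone and hairy cell lines (n = 5 each, edgeR adjusted p = 0.446), or 2.93 without VL51. No ABC line reached 10 CPM of CXCR3 either, so the filter favoured the direction of both differences. The DESeq2 call is therefore no support for that direction.

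CD44 was above 100 CPM in nearly all lines outside the GCB type and divided the GCB lines. The marginal zone and hairy cell lines had 2490 (KARPAS1718), 1700 (VL51), 1150 (HC_1), 426 (HAIR_M) and 28.1 CPM (SSK41). The mantle cell lines ran from 106 CPM in UPN1 through a median of 1620 to 2710 CPM in REC1. ABC lines had 6520 (HBL1), 4240 (SUDHL2), 3450 (TMD8), 660 (U2932) and 643 CPM (RIVA). SSK41 was the only line of these 19 under 100 CPM, and the ABC type held the highest median. Among the 14 GCB lines, 11 lay between 18.2 CPM (SUDHL4) and 154 CPM (SUDHL10), and TOLEDO, DOHH2 and OCILY19 had 1750, 1850 and 8120 CPM. OCILY19 was thus the highest of all 36 lines while the GCB median of 104 CPM was the lowest of any type. By median the order was ABC, mantle cell, marginal zone and hairy cell, then GCB, with overlap between all.

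No comparison of CD44 (chr11:35138870-35232402, plus strand, with 39 annotated transcripts that the counts do not separate) passed the test. ABC lines averaged 11.03 ± 1.57 log2 CPM and GCB lines 7.1 ± 2.66 log2 CPM (SD, n = 5 and 14). The fitted log2 fold change between them was 1.79 ± 1.02 (95% interval -0.29 to 3.87, edgeR adjusted p = 0.422). OCILY19 decided this value, which was 3.18 without it (edgeR adjusted p = 0.0585). In mantle cell against GCB lines it was 0.75 ± 0.89 (n = 9 and 14, edgeR adjusted p = 0.641), and 2.14 without OCILY19. Marginal zone and hairy cell against GCB lines gave 0.37 ± 1.08 (n = 5 and 14, edgeR adjusted p = 0.982), and 1.76 without OCILY19 but -0.12 without KARPAS1718. In limma-voom CD44 was at 3.87 in ABC lines (adjusted p = 0.0506), 2.8 in mantle cell lines (adjusted p = 0.0866) and 1.96 in marginal zone and hairy cell lines (adjusted p = 0.573) over GCB lines. On the authors' log2 values limma gave 3.88, 2.93 and 2.04 for them, with no call. CD44-AS1 on the opposite strand and AL133330.1 on the same strand overlap CD44 in the annotation.

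**Figure D2:**
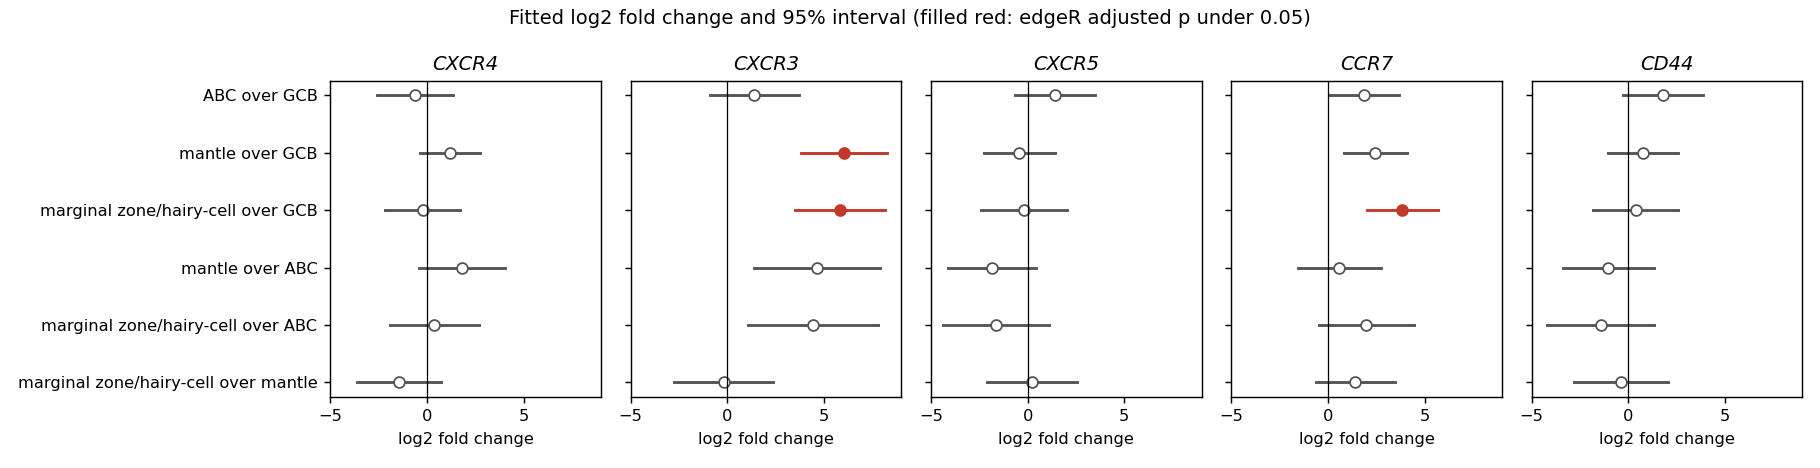
Fitted log2 fold change (x axis) of each gene in the 6 comparisons of types (rows), with 95% intervals as lines. Filled points passed the edgeR test at an adjusted p under 0.05, which were CXCR3 in mantle cell (6.02) and in marginal zone and hairy cell lines (5.84) and CCR7 in marginal zone and hairy cell lines (3.85), each over GCB lines. CXCR3 passed the filter on low values only through lines that are not GCB, which set the direction of its calls.

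Counted together, 2 of the 5 genes passed the edgeR test in marginal zone and hairy cell against GCB lines, where 3.2% of all genes tested passed. In mantle cell against GCB lines it was 1 of 5, where 4.2% of all genes passed. CXCR3 is in both counts and was kept only through the higher types. In ABC against GCB lines edgeR called 0 of 5, where 1.75% of all genes passed; CCR7 was under 0.05 before adjustment, and DESeq2 and both limma tests called 0. In mantle cell against ABC lines edgeR called 0 of 5, where 0.374% of all genes passed, with 1 under 0.05 before adjustment, 1 call in DESeq2 (CXCR3) and 0 in both limma tests. No ABC line took CXCR3 past the filter, so it was kept only through other types here as well. In marginal zone and hairy cell against ABC lines edgeR called 0 of 5, where 0% of all genes passed, with 1 of 5 under 0.05 before adjustment and 0 calls by the other tools. In marginal zone and hairy cell against mantle cell lines edgeR called 0 of 5, where 0.582% of all genes passed, with 0 under 0.05 before adjustment and 0 by the other tools. DESeq2 called CCR7 and CXCR3 in mantle cell against GCB lines, and limma-voom called none of the 5 in marginal zone and hairy cell against GCB lines. Before adjustment, 361 of all 2406 genes were under 0.05 in ABC against GCB lines and 329 in mantle cell against ABC lines. In marginal zone and hairy cell lines it was 181 against ABC lines and 192 against mantle cell lines.

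Taken line by line, the genes came in many combinations. JVM2, SP49 and SP53, all mantle cell lines, were at 100 CPM or more for all 5 genes. KARPAS422, a GCB line, was under 100 CPM for all 5, with 33.1 CPM of CXCR4, 0.548 of CXCR3, 12.1 of CXCR5, 15.9 of CCR7 and 39 of CD44. VL51 had the most CCR7 (7670 CPM) and CXCR3 (182 CPM) of all lines, but its 67.2 CPM of CXCR4 was the lowest of its type. SSK41 was its opposite within the type, with the most CXCR5 of the 5 lines (4630 CPM) and the least CXCR3, CCR7 and CD44 (0.782, 65.4 and 28.1 CPM).

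**Figure D3:**
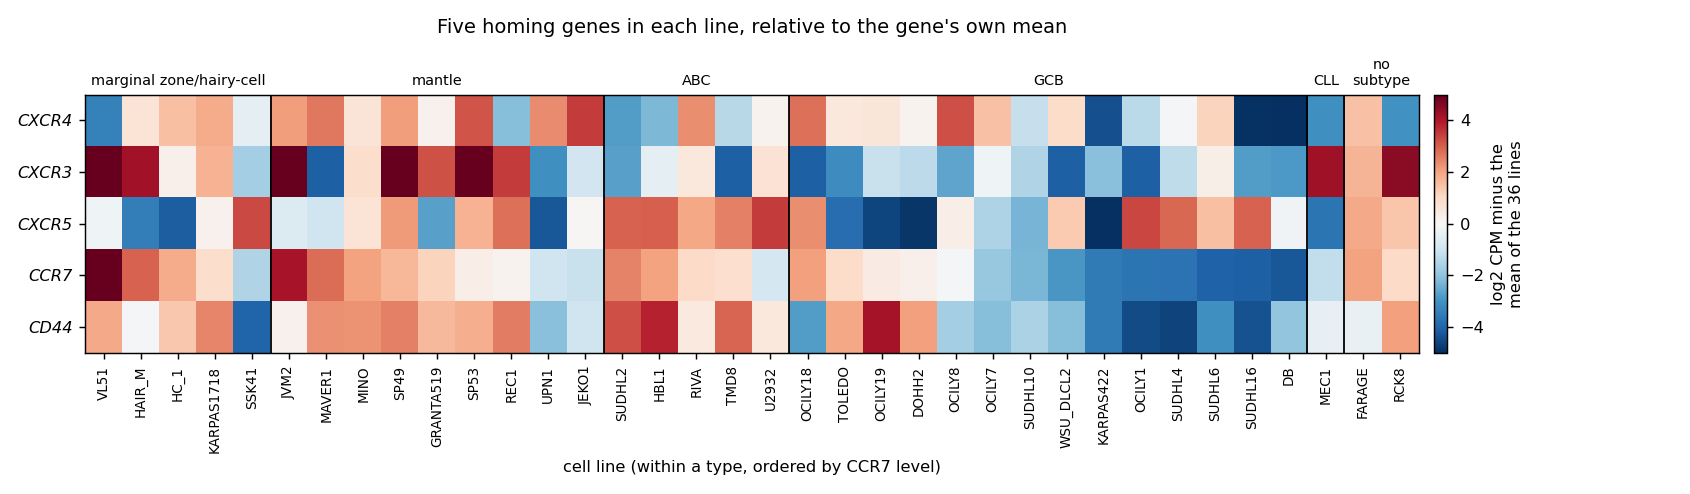
Level of the 5 genes (rows) in each line (columns, grouped by type and ordered by CCR7 within a type), as log2 CPM minus the gene's own mean over the 36 lines, with the colour scale ending at -5 and 5. In the GCB block TOLEDO, OCILY19 and DOHH2 hold high CD44 (1750, 8120 and 1850 CPM) beside low CXCR5 (33.4, 19.5 and 16.2 CPM).

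CCR7 and CD44 varied together across lines more than any other pair of the 5. Over the 36 lines their log2 CPM had a Pearson r of 0.71 and a Spearman rho of 0.64, and r was 0.73 without VL51 and DB, the lines farthest from the median of CCR7. With type means removed r was 0.63. In the 9 mantle cell lines r was 0.45, and 0.7 without JVM2 and JEKO1. Within the 14 GCB lines it was 0.67, or 0.41 over the 11 GCB lines left when TOLEDO, DOHH2 and OCILY19 were set aside. These points share the panel and the scaling, and r was 0.72 after the TMM factor was regressed out. At a level of 100 CPM, 22 lines held both genes, 7 held CD44 alone, 6 held neither and OCILY18 alone held CCR7 without CD44 (778 and 65.6 CPM). The 6 lines with neither were SSK41 and the GCB lines KARPAS422, OCILY1, SUDHL4, SUDHL6 and SUDHL16. Ranked by Spearman rho over the other 2405 genes, CCR7 was the 5th gene for CD44 and CD44 the 15th for CCR7.

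**Figure D4:**
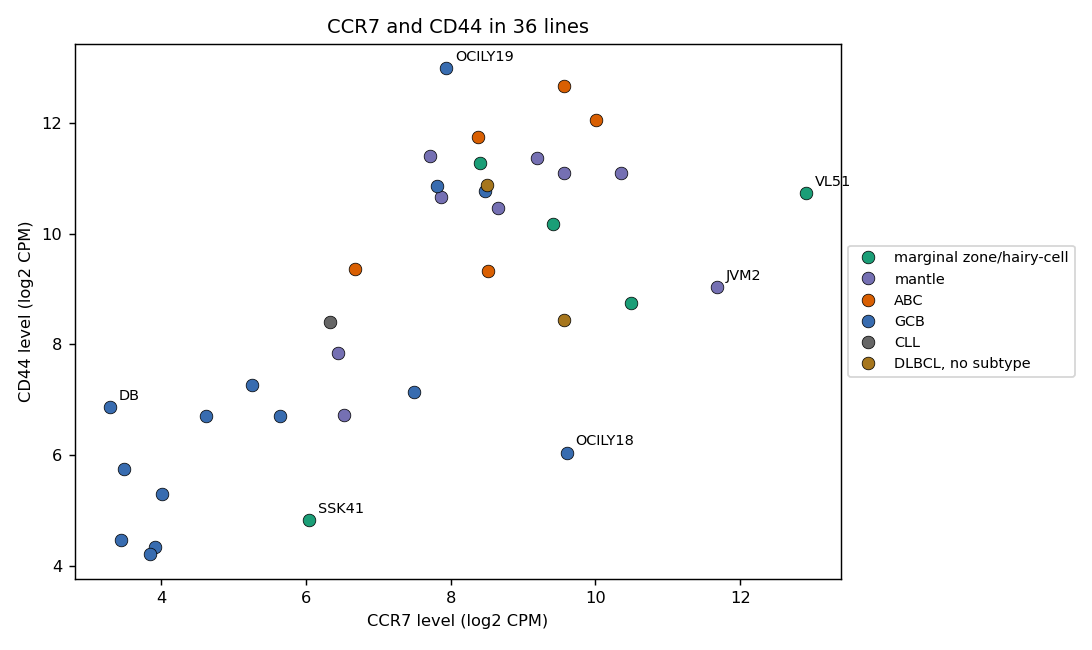
CD44 level (log2 CPM, y axis) against CCR7 level (log2 CPM, x axis) in the 36 lines, with colour for type and names for lines far from the rest. Points rise from lower left, where 5 GCB lines and SSK41 hold under 100 CPM of both, to upper right, with OCILY18 as the line with CCR7 but little CD44 and a Pearson r of 0.71 in all.

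CXCR5 and CD44 had no relation over all 36 lines (r = -0.12, rho = -0.06) but opposite signs within the 2 larger types. Within the 9 mantle cell lines r was 0.66 and rho 0.72, with r at 0.51 without UPN1 and GRANTA519. Within the 14 GCB lines r was -0.74 and rho -0.72, and r was -0.92 without KARPAS422 and DOHH2. The GCB lines with the most CD44, OCILY19, DOHH2 and TOLEDO, had 19.5, 16.2 and 33.4 CPM of CXCR5, while SUDHL4, OCILY1 and SUDHL16, with 18.2, 20.1 and 22 CPM of CD44, had 3480, 4780 and 3660 CPM of CXCR5. KARPAS422 broke this pattern with little of either gene. Over the 11 GCB lines under 1000 CPM of CD44, r was -0.46 and rho -0.67. CXCR4 and CCR7 had an r of -0.04 in mantle cell lines, 0.65 in GCB lines (0.54 without DB and SUDHL16) and 0.29 over all 36 (0.09 without DB and SUDHL16). The other pairs had r between -0.07 and 0.45 over all lines, CXCR3 with CCR7 being the highest of them (rho 0.36).

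The genes most like CCR7 across lines, by Spearman rho of log2 CPM over 36 lines, were TNFRSF14, which encodes the receptor HVEM (0.81), NFKBIA, the NF-kB inhibitor and target IkB-alpha (0.79), TET2, a DNA demethylase (0.76), GPD2, a mitochondrial dehydrogenase (0.73), and TNFAIP3, the NF-kB inhibitor A20 (0.73). For CD44 they were TNFRSF1B, a TNF receptor (0.7), NFKBIA (0.69), TET2 (0.67), AHNAK, a large scaffold protein (0.67), and CCR7 itself (0.64). NFKBIA and TET2 stood in both sets. CXCR3 was nearest to WNT5B, a Wnt ligand (0.68), TP73, of the p53 family (0.65), CCL22, a chemokine of CCR4 (0.65), EGR3, an early response factor (0.62), and PDCD1, which encodes PD-1 (0.6). CXCR5 was nearest to BMF, a pro-apoptotic BH3-only gene (0.69), CAMKK1, a calmodulin-dependent kinase kinase (0.64), RASSF7 (0.61), BCL3, an atypical IkB protein (0.59), and PLCG2, the phospholipase below the B-cell receptor (0.58). CXCR4 was nearest to SIAH1, a ubiquitin ligase (0.69), PTP4A1, a phosphatase (0.62), BTG1, an antiproliferative gene (0.62), CREB1, a transcription factor (0.58), and FANCF, of the Fanconi repair complex (0.58). The set of CXCR5 was the least stable, with 2 or 3 of its 5 genes shared in 5 of 7 other scalings or line sets, while the sets of CCR7 and CD44 shared at least 3.

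In capitals below is any match to the 10-base NF-kB consensus or TATAAA on either strand, of which the CD44 promoter held none. The promoters of CD44, of NFKBIA, which is near both CCR7 and CD44, and of TNFAIP3, which is near CCR7, are printed side by side. They are RefSeq stretches on GRCh38.p14, written 5′ to 3′: chr11:35138921-35139220 (plus) for CD44, chr14:35404700-35404999 (minus) for NFKBIA and chr6:137867009-137867308 (plus) for TNFAIP3.
CD44 promoter: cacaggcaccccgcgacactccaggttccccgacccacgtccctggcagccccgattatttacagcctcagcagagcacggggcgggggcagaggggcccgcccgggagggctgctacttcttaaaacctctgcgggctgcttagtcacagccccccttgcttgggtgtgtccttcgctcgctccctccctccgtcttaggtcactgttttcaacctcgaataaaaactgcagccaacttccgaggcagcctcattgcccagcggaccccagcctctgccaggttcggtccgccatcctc
NFKBIA promoter: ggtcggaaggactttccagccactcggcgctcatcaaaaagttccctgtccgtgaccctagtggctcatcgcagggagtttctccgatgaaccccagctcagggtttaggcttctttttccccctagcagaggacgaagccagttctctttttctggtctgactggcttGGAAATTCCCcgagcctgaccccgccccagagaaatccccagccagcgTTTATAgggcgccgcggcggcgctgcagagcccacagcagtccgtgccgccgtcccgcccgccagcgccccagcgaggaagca
TNFAIP3 promoter: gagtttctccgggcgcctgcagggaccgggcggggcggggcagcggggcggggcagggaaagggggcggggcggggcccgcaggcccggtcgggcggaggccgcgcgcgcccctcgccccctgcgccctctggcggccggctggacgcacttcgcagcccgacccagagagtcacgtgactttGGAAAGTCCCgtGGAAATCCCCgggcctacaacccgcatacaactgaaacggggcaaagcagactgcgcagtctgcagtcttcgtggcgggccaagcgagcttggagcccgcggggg
NFKBIA held 1 consensus match, GGAAATTCCC at base -81, and TNFAIP3 held 2, GGAAAGTCCC at -67 and GGAAATCCCC at -55, counted from the start and read on the printed strand. TNFRSF14 (GGGGCTCCCC at -84) and CCL22 (GGGGGTCCCC at -185) held 1 each. SIAH1, the gene nearest to CXCR4, also held 1, in the window of its start 2 (GGGGCTCCCC at -201). The windows of TET2, which is near both CCR7 and CD44, and of BTG1, which is near CXCR4, held no match to this consensus. The windows of CD44, CXCR5 and CXCR3 held none of the 3 motifs searched, which says nothing of the factors. CCR7 has no entry in the promoter table. Of all 35116 promoters, 5.91% held a match to the consensus. Of the nearest genes named above, only NFKBIA, TNFAIP3, TNFRSF14, TET2, CCL22, BTG1 and SIAH1 were searched. Matches among these picked genes therefore cannot be set against that share.

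Among the 15 measured NF-kB target genes, CCR7 had a median Spearman rho of 0.41, from 0.22 to 0.79, where its median over all 2405 genes was 0. With 6 of the 15, rho reached 0.5 (NFKBIA, TNFAIP3, CCL22, ICAM1, NFKB1 and NFKB2), as it did for 2.95% of all genes. CD44 had a median of 0.28 with the same list and CXCR3 one of 0.35, whereas CXCR5 had 0.02 and CXCR4 -0.04. With the 10 measured germinal centre genes the median rho was -0.42 for CCR7, -0.48 for CD44, -0.3 for CXCR3, -0.08 for CXCR4 and 0.17 for CXCR5. CCR7 had a rho of -0.71 with MYBL1, a transcription factor of the germinal centre, -0.7 with MME, which encodes CD10, -0.63 with BCL6, the master repressor of that stage, and -0.6 with SERPINA9. CD44 had -0.65 with MME, -0.6 with MYBL1, -0.54 with BCL6 and -0.51 with ITPKB. With type means removed over the 33 typed lines, the median rho with the NF-kB target genes was 0.32 for CCR7 and 0.19 for CD44, with NFKBIA highest for both (0.73 and 0.55), and with the germinal centre genes -0.46 for CCR7 and -0.41 for CD44. For CXCR3 these medians were 0.15 and -0.1. In the same values CCR7 reached a rho of 0.5 with 2 of the 15 NF-kB target genes, as it did with 2.74% of all genes.

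**Figure D5:**
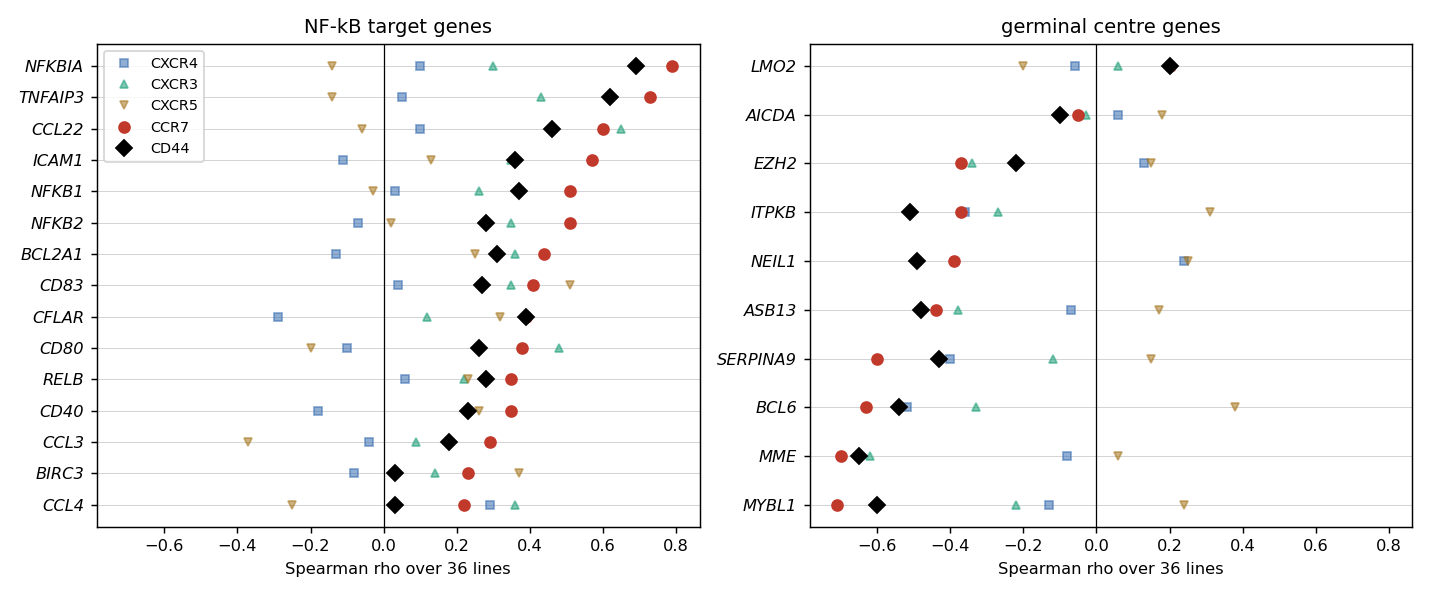
Spearman rho over 36 lines (x axis) of each of the 5 genes (markers) with each NF-kB target gene (left) and each germinal centre gene (right, rows). CCR7 and CD44 lie right of 0 for all 15 NF-kB target genes, from 0.22 to 0.79 for CCR7, and left of 0 for most germinal centre genes, down to -0.71 for CCR7 with MYBL1.

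Of the 15 NF-kB target genes, 4 were higher in marginal zone and hairy cell than in GCB lines by edgeR: CCL22 by 6.47 ± 1.04 log2 units (adjusted p = 0.000512), BCL2A1, an antiapoptotic gene, by 3.39 ± 0.7 (0.00494), TNFAIP3 by 2.69 ± 0.73 (0.0315) and NFKB2 by 2.3 ± 0.54 (0.00959). The calls of TNFAIP3 and NFKB2 were lost without VL51 (2.16, adjusted p = 0.218, and 1.26, adjusted p = 0.361), and that of TNFAIP3 also without HAIR_M. In mantle cell lines 3 were higher, namely CCL22 (4.84 ± 0.93, edgeR adjusted p = 0.00155), CCL4, an inflammatory chemokine (4.22 ± 0.97, 0.00905), and BCL2A1 (2.58 ± 0.62, 0.0142), with CCL22 at 3.27 and CCL4 at 3.45 without JVM2. In ABC lines BCL2A1 alone was higher (3.61 ± 0.7, edgeR adjusted p = 0.00287). Where edgeR called 4, 3 and 1 of the 15 in these comparisons, limma-voom called 2, 1 and 1, and limma on the authors' log2 values 2, 2 and 0. Of all 2406 genes, edgeR called 3.2%, 4.2% and 1.75% in the same order. Over all genes limma-voom called 14, 57 and 28, and limma on the authors' log2 values 7, 67 and 5. None of the 15 was lower by edgeR. The list's median log2 fold change was 1.35, 0.91 and 0.57 in these comparisons, where all genes had medians of -0.09, -0.28 and -0.12. Of the 10 germinal centre genes, MME was lower in mantle cell lines by edgeR, at -3.86 ± 0.8 (adjusted p = 0.00317), and so was BCL6, at -3.19 ± 0.75 (adjusted p = 0.0108). In ABC lines MME was at -3.87 ± 1.04 (edgeR adjusted p = 0.0437), a call lost on leaving out any of 11 of the 19 lines (at most adjusted p = 0.149, without SUDHL2). Each limma test called 1 of the 10 in mantle cell and 1 in ABC lines, where edgeR called 2 and 1. In marginal zone and hairy cell lines edgeR called 0 of the 10, with 1 under 0.05 before adjustment and 0 by DESeq2 or either limma test. Of all 2406 genes, 309 were under 0.05 before adjustment there. Germinal centre medians were -0.8, -2.48 and -1.34 in marginal zone and hairy cell, mantle cell and ABC lines over GCB lines.

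The panel held 19 other chemokine receptors and decoy receptors. CCR10, the receptor of CCL27 and CCL28, was higher in marginal zone and hairy cell than in GCB lines by 1.9 ± 0.47 log2 units (edgeR adjusted p = 0.014), and lost its call without HC_1 or without VL51 (both 1.63, adjusted p at most 0.104). It was 1 of 19 called there by edgeR, where 3.2% of all genes passed, and both limma tests called 0 of 19. In mantle cell and in ABC lines against GCB lines edgeR called 0 of 19, where 4.2% and 1.75% of all genes passed, with 2 under 0.05 before adjustment in each, 1 in each by DESeq2 and 0 by both limma tests. Of all 2406 genes, 454 and 361 were under 0.05 before adjustment there. The list's median log2 fold change was -0.26, -0.68 and 0.15 in marginal zone and hairy cell, mantle cell and ABC lines. ACKR3, the scavenger receptor that also binds CXCL12, ran from 0.793 to 1090 CPM with its highest level in DOHH2. Its log2 fold change was -2.77 ± 1.24 in ABC over GCB lines (edgeR adjusted p = 0.28) and 2.68 ± 1.27 in mantle cell over ABC lines (edgeR adjusted p = 0.352), neither called. Of these receptors, 14 had their highest level in MEC1, the library with the highest control targets.

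Among ligands of the 5 genes, CXCL12 had a median of 6.15 CPM and a highest level of 46.9 CPM, in MEC1, CCL19 a median of 3.66 CPM and CCL21 one of 11.3 CPM. CXCL13 did not pass the filter and reached 209 CPM in TMD8 with a median of 1.82 CPM. CXCL9 reached 905 CPM in DOHH2, CXCL10 1430 CPM in HAIR_M and SPP1, the CD44 ligand osteopontin, 2590 CPM in TMD8. MIF, a cytokine that also binds CXCR4, was between 2410 and 19100 CPM in every line. By edgeR 0 of the 9 tested ligands differed in any of the 3 comparisons with GCB lines. Before adjustment 4 of 27 tests were under 0.05, and DESeq2 and both limma tests called 0. Over all genes 1124 of 7218 tests against GCB lines were under 0.05 before adjustment, and edgeR called 220. Receptors and their ligands had r over the 36 lines of -0.1 for CXCR4 with CXCL12, -0.03 for CXCR5 with CXCL13, 0.26 for CCR7 with CCL19, 0.04 for CCR7 with CCL21, 0.29 for CD44 with SPP1 and between -0.07 and 0.19 for CXCR3 with CXCL9, CXCL10 and CXCL11.

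Among the 15 adhesion and homing molecules, ITGAM, the integrin alpha M chain, was higher in mantle cell than in GCB lines by 3.35 ± 0.84 log2 units (edgeR adjusted p = 0.018), and at 2.51 without GRANTA519 (adjusted p = 0.0783), which held the highest level of 110 CPM. limma-voom called 0 of the 15 there and limma on the authors' log2 values 1. ITGAM was also 1 of the 7 myeloid markers, of which edgeR did not call the other 6 in that comparison. Levels of ITGAM were low, with a median of 1.91 CPM and a mean of 0.36 log2 CPM in GCB lines. It passed the filter on low values through 7 of the 36 lines, and 25 lines were above their highest control target. VCAN, a proteoglycan that binds hyaluronan, was higher in marginal zone and hairy cell than in GCB lines by 2.42 ± 0.68 (edgeR adjusted p = 0.04), a call lost on leaving out any of 12 of the 19 lines and at 1.6 without HAIR_M (adjusted p = 0.477). Each was the only gene of the 15 called by edgeR in its comparison, and both limma tests called 0 of 15 in that of VCAN. Of all genes, 4.2% passed edgeR in the comparison of ITGAM and 3.2% in that of VCAN. In ABC against GCB lines edgeR called 0 of 15, where 1.75% of all genes passed. Before adjustment 2 of the 15 were under 0.05 there, as were 361 of all 2406 genes. DESeq2 called 1 of the 15 and both limma tests 0. ITGA4, the alpha 4 chain of the VCAM1 receptor, was at -2.56 ± 0.71 (edgeR adjusted p = 0.057). Of the 16 signalling and motility genes below the receptors, PIK3CD, the leukocyte PI3-kinase delta, was higher in mantle cell than in GCB lines by 1.13 ± 0.3 (edgeR adjusted p = 0.0251), and PIK3CG, the gamma form that acts below Gi-coupled receptors, was at -2.46 ± 0.59 (edgeR adjusted p = 0.014). PIK3CD lost its call without GRANTA519, JVM2 or MAVER1 (at most adjusted p = 0.062, at 1.01 without JVM2). In that comparison edgeR called 2 of the 16, where 4.2% of all genes passed, limma-voom 1 and limma on the authors' log2 values 2. Across the 36 lines PIK3CD had a Spearman rho of 0.69 and PIK3CG one of -0.55 with CCR7. In the other comparisons with GCB lines edgeR called 0 of these 16, with 4 under 0.05 before adjustment in marginal zone and hairy cell lines and 2 in ABC lines, 1 and 0 by DESeq2, and 0 by both limma tests. Of all 2406 genes, 309 and 361 were under 0.05 before adjustment in these 2 comparisons. S1PR1, the receptor for lymph node exit, was the only measured gene of its list and was at 1.69 ± 0.7 in mantle cell over GCB lines, not called by edgeR (adjusted p = 0.168) but called by DESeq2. Over all these lists, edgeR called 16 of 255 tests against GCB lines, DESeq2 31, limma-voom 7 and limma on the authors' log2 values 9. Over all genes these tools called 220, 445, 99 and 79 of 7218 tests. ICAM1 was in both the adhesion and the NF-kB list, so its tests count once in each. In the 3 comparisons among types other than GCB, edgeR called none of these lists' genes. There, 20 of 255 tests were under 0.05 before adjustment, with 6 calls by DESeq2 and 0 by both limma tests. Over all genes 702 of 7218 were under 0.05 before adjustment, with 23 calls by edgeR, 107 by DESeq2 and 2 by each limma test.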

How the data were processed

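Targeted RNA-Seq was run on lysates of 36 lymphoma cell lines, 1 library each, per the labels' protocols. The deposited counts are whole numbers per target with no scaling. The authors' log2 values are the log2 of each count divided by 1 factor per library, plus 1, as a comparison with the counts showed. The submitters' processing notes name build hg38. No aligner, counting tool or strand setting is named in the labels or file headers. Library totals were 6422917 to 13451527 counts, after 10 targets assumed to be controls (at most 0.0265% of counts) were left out.

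In R 4.3.3, edgeR 4.0.16 gave TMM factors, CPM and log2 CPM (prior count 2). The 2406 genes that reached 10 CPM in 4 or more lines entered a quasi-likelihood fit of the 33 lines of 4 types, with Benjamini-Hochberg adjustment over all of them and calls under 0.05. DESeq2 1.42.0 and limma 3.58.1 (voom, and the authors' log2 values) were alternatives, with other scalings, filters and line sets. The fit was tested on simulated data. Intervals of levels and the limit of a count of 0 (3 counts) cover counting error only. The p-values set a difference between types against the spread between lines, with each line taken as an independent replicate. Whether the most alike libraries, SP49 with SP53 and SUDHL2 with TMD8, are independent was not settled. Genes named are the 5 genes, the 5 genes with the highest Spearman rho to each, the counts of 7 lists and up to 4 called genes per list in each comparison with GCB lines. List values given for other genes, such as ligand levels, were chosen after they were seen. The genes, lists and motifs were chosen with earlier results of these data known. Gene coordinates come from GENCODE release 29 on GRCh38 and promoter sequences from RefSeq on GRCh38.p14. Values of some single genes are not reported here.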

Additional observations from a re-analysis of the deposited data

How the results depend on the processing

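The 30 log2 fold changes of the 5 genes between types were computed again under other scalings, tests, filters, covariates and line sets, which gave 340 values: 316 kept their direction and side of the threshold, 5 lost a call, 4 gained one and 15 changed sign, the last only among differences that no setting called. The cause was not tested. No paired analysis was possible because the types hold different lines and each line gave 1 library. Calls lost were CXCR3 in mantle cell over GCB lines in limma-voom (4.38), and in marginal zone and hairy cell over GCB lines CXCR3 (4.74 in limma-voom, 4.58 on the authors' log2 values) and CCR7 (3.73 and 3.82). Calls gained were CCR7 in mantle cell over GCB lines in DESeq2 (2.5), limma-voom (2.95) and on the authors' log2 values (3.1), and CXCR3 in mantle cell over ABC lines in DESeq2 (4.74). No GCB or ABC line took CXCR3 past the filter on low values, which favoured the direction of its calls over these types. Signs that changed were CXCR5 in mantle cell over GCB lines (0.09 with library size alone, 0.49 in limma-voom, 0.48 on the authors' log2 values), CXCR5 in marginal zone and hairy cell over GCB lines (0.06 with library size alone, 0.52 without HC_1 and HAIR_M), CXCR4 in the same comparison (0.51 in limma-voom, 0.49 on the authors' log2 values), CCR7 in mantle cell over ABC lines (-0.08 with the log2 TMM factor as covariate), and, in marginal zone and hairy cell over mantle cell lines, CXCR5 (-0.03 with library size alone, -0.73 in limma-voom, -0.78 on the authors' log2 values) and CXCR3 (0.37 in limma-voom, 0.32 on the authors' log2 values, 0.16 without HC_1 and HAIR_M, 0.07 without SP53 and TMD8, a line set chosen after seeing the data). The SD of CXCR3 was 2.54 with a prior count of 10. Of all genes, edgeR called 42 in ABC over GCB lines (126 in DESeq2, 5 on the authors' log2 values), 101 in mantle cell over GCB lines (214 in DESeq2, 57 in limma-voom, 67 on the authors' log2 values, 178 with the log2 TMM factor, 67 without SP53 and TMD8) and 77 in marginal zone and hairy cell over GCB lines (14 in limma-voom, 7 on the authors' log2 values, 45 with FARAGE as GCB and RCK8 as ABC, 34 without HC_1 and HAIR_M). It called 9 in mantle cell over ABC lines (47 in DESeq2, 1 in limma-voom, 1 on the authors' log2 values, 4 with a 50 CPM filter, 16 with the 2 types alone, 1 without SP53 and TMD8), 0 in marginal zone and hairy cell over ABC lines (181 under 0.05 before adjustment, 28 in DESeq2) and 14 in marginal zone and hairy cell over mantle cell lines (5 with library size alone, 32 in DESeq2, 1 in limma-voom, 1 on the authors' log2 values, 9 with a 50 CPM filter, 9 without HC_1 and HAIR_M, 0 with the 2 types alone, 5 without SP53 and TMD8). Leaving out each line of a pair of types in turn moved the count of genes called to 24 to 55 in ABC over GCB lines (24 without HBL1), 63 to 130 in mantle cell over GCB lines (63 without JVM2), 36 to 92 in marginal zone and hairy cell over GCB lines (36 without HAIR_M), 2 to 20 in mantle cell over ABC lines (2 without SP53, 20 without RIVA), 0 to 1 in marginal zone and hairy cell over ABC lines and 6 to 26 in marginal zone and hairy cell over mantle cell lines (6 without SP53, 26 without JVM2). Among the 5 genes it changed a call or a sign in 10 results, with ranges in mantle cell over GCB lines of 1.7 to 3.07 for CCR7, in marginal zone and hairy cell over GCB lines of 2.16 to 4.47 for CCR7, -0.65 to 0.25 for CXCR4, -2.34 to 0.14 for CXCR5 and -0.12 to 1.76 for CD44, in mantle cell over ABC lines of -0.17 to 0.99 for CCR7, in marginal zone and hairy cell over ABC lines of -0.04 to 1.95 for CXCR4, and in marginal zone and hairy cell over mantle cell lines of -1.68 to 0.19 for CXCR3, -1.91 to 0.71 for CXCR5 and -0.29 to 2.15 for CCR7. CXCR3 was at or under the highest control target in 16 lines.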
